A study of Zea mays with 18 samples.

Results

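Among the 34474 genes measured in maize (Zea mays) stems, 7 genes of brassinosteroid synthesis, light perception and plant architecture were followed, chosen by their identifiers: na1 (Zm00001d042843), CYP85A1 (Zm00001d033180), PhyB1 (Zm00001d028905), PhyB2 (Zm00001d047632), ct2 (Zm00001d027886), liguleless2 (Zm00001d042777) and PIN1d (Zm00001d052442). No measured value entered the choice rule, although the genes were chosen with earlier results of these data known. All 7 passed the filter on low values described with the tests. For liguleless2 and PIN1d this rested on the stage where each was high, as given with the counts. Poly-A RNA was sequenced from stems of 3 hybrids of distinct plant height, each with Dan 598 as a parent: a high hybrid (Dan 598 x ES40), a middle hybrid (Dan 598 x CML444) and a low hybrid (Dan 598 x FAPW). Each hybrid was sampled at jointing, when the stem starts to elongate, at big flare, the late whorl stage, and at tasseling, when the tassel emerges. That gives 9 groups of 2 libraries, 18 in all. Since 1 hybrid stands for each height class, height and genotype cannot be told apart, and no parent line was included. Whether replicates are separate plants is not stated in the labels, and the spread behind the p-values may be technical.

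Brassinosteroids are steroid hormones that promote cell elongation, and maize plants that lack them are dwarfs. na1 (nana plant1) encodes the steroid reductase that acts early in the pathway (DET2 in Arabidopsis), and CYP85A1 the C-6 oxidase that acts near its end. Phytochrome B is the photoreceptor that senses the ratio of red to far-red light and restrains stem elongation in full light, and maize carries a pair of closely related copies, PhyB1 and PhyB2. ct2 (compact plant2) encodes the alpha subunit of the heterotrimeric G protein, whose loss gives short plants with enlarged meristems. liguleless2 encodes a bZIP transcription factor that sets the boundary between leaf blade and sheath and affects leaf angle and tassel branching, and PIN1d is an auxin efflux carrier.

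Values are FPKM, fragments scaled by transcript length and library size, as deposited, so levels of different genes can be set side by side. Across all genes, the correlation of log2(FPKM + 1) between the replicates of a group was 0.9 to 0.941, and 12 of the 18 libraries were nearest to their own replicate. Absolute depth is unknown. Relative depth, read from the steps between low FPKM values, averaged 0.588 at jointing, 0.54 at big flare and 0.862 at tasseling, where the deepest library is 1. It ran from 0.425 in high big flare replicate 1 to 1.0 in low tasseling replicate 2. By stage it ran from 0.448 to 0.961 at jointing, 0.425 to 0.618 at big flare and 0.623 to 1.0 at tasseling. The 0.961 was high jointing replicate 1. In the middle hybrid jointing (0.477 and 0.448) was shallower than big flare (0.612 and 0.618). Values near 0 are therefore less precise at big flare and in most jointing libraries than at tasseling, which bears on CYP85A1, liguleless2 and PIN1d. In whole stems, fewer cells of a type and less RNA per cell cannot be told apart.

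The 7 genes fell into a higher and a lower range. PhyB1 averaged 17.7 FPKM over the 18 libraries, ct2 15.9, na1 10.5 and PhyB2 7.17, while CYP85A1 averaged 1.76, liguleless2 1.00 and PIN1d 0.669. na1, both phytochromes and ct2 were above 2 FPKM in every library. CYP85A1 was listed at 0 in 1 library, liguleless2 in 3 and PIN1d in 4.

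**Figure D1:**
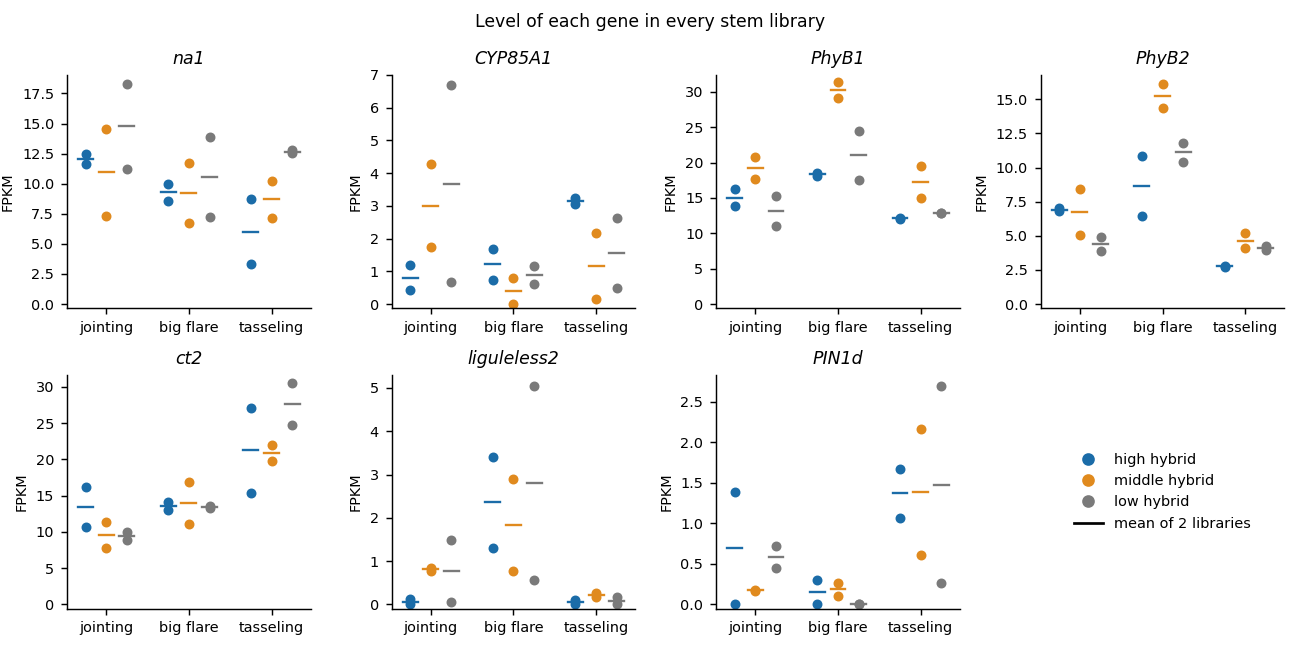
FPKM of each of the 7 genes (vertical axis) in all 18 libraries, by stage (horizontal axis) and hybrid (colour). Points are single libraries and bars the mean of the 2 libraries of a group; PhyB1, PhyB2 and liguleless2 were highest at big flare, ct2 and PIN1d at tasseling.

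Between stages 5 of the 7 genes passed the test in at least 1 comparison. PhyB1 and PhyB2 rose at big flare and fell at tasseling, liguleless2 fell at tasseling, and ct2 and PIN1d rose there. Genes were tested with limma on log2(FPKM + 1) for the 26792 genes with at least 1 FPKM in at least 2 libraries, with stages compared as means over the 3 hybrids and Benjamini-Hochberg adjustment over all tested genes to a threshold of 0.05. In tasseling against big flare 5 of the 7 genes passed, 2 higher and 3 lower. This was a comparison in which 41.6% of all tested genes passed, 22.4% higher and 19.2% lower. Of the 5, liguleless2 met the filter only through big flare libraries and PIN1d only through tasseling libraries, the stage where each was high. Outside those stages liguleless2 reached 1 FPKM only in low jointing replicate 1 (1.49), and PIN1d only in high jointing replicate 2 (1.39). Their calls are therefore not independent of the filter. In big flare against jointing 2 of 7 passed, both higher, and 12.4% of all genes passed, 7.29% higher and 5.06% lower. In tasseling against jointing 2 of 7 passed, 1 higher and 1 lower, beside 29.9% of all genes, 18.8% higher and 11.1% lower. The share of the 7 genes in tasseling against jointing is thus near the background. The 3 stage comparisons share libraries with each other and are not independent.

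na1 passed in no stage comparison. It measured 11.7 and 12.5 FPKM in high hybrid libraries, 14.6 and 7.29 in the middle hybrid and 18.3 and 11.2 in the low hybrid at jointing. At big flare it measured 10 and 8.56, 6.72 and 11.7, and 13.9 and 7.26 FPKM in the high, middle and low hybrids. At tasseling it stood at 8.71 and 3.29 FPKM in high hybrid libraries, 10.2 and 7.17 in the middle hybrid and 12.5 and 12.8 in the low hybrid. Replicates of 1 group differed as much as stages did, and the stages overlapped. The log2 change in tasseling against jointing was -0.48 ± 0.26 (SE; 95% interval -1.04 to 0.09; limma adjusted p = 0.189). In all 3 hybrids the tasseling mean was the lower one. The interval allows a fall of up to 1.04 log2 units and a rise of at most 0.09.

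CYP85A1 ranged from 0 to 6.68 FPKM, and among the 7 genes it varied most between replicates, with replicate 2 the higher one in 9 of 9 groups. At jointing it measured 0.42 and 1.18 FPKM in high hybrid libraries, 1.73 and 4.28 in the middle hybrid and 0.68 and 6.68 in the low hybrid. Its big flare values were 0.75 and 1.69 FPKM in high hybrid libraries, 0 and 0.81 in the middle hybrid and 0.6 and 1.15 in the low hybrid. At tasseling they were 3.06 and 3.23, 0.16 and 2.17, and 0.49 and 2.64 FPKM in the high, middle and low hybrids. The stages overlapped throughout, although 4 of the 6 tasseling libraries lay above all 6 big flare libraries. The log2 change was 0.59 ± 0.41 in tasseling against big flare (SE; 95% interval -0.30 to 1.48; limma adjusted p = 0.276) and -0.72 ± 0.41 in big flare against jointing (-1.61 to 0.17; adjusted p = 0.273). These intervals leave room for changes of more than 1 log2 unit.

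PhyB1 peaked at big flare in all 3 hybrids. At jointing it measured 13.9 and 16.2 FPKM in high hybrid libraries, 20.8 and 17.7 in the middle hybrid and 15.2 and 11.01 in the low hybrid. Big flare gave 18.1 and 18.6 FPKM in high hybrid libraries, 31.4 and 29.2 in the middle hybrid and 24.5 and 17.5 in the low hybrid. Tasseling gave 12.1 and 12.2, 15.1 and 19.5, and 12.9 and 12.9 FPKM in the high, middle and low hybrids. Within each hybrid, both big flare libraries lay above both jointing and both tasseling libraries. PhyB1 fell by 0.66 ± 0.14 on the log2 scale in tasseling against big flare (SE; limma adjusted p = 0.00204), with a mean of 14.1 ± 2.84 FPKM at tasseling and 23.2 ± 6.08 FPKM at big flare (SD, n = 6). It rose by 0.51 ± 0.14 in big flare against jointing (adjusted p = 0.0295), where the jointing mean was 15.8 ± 3.33 FPKM. Tasseling against jointing gave -0.15 ± 0.14 (95% interval -0.44 to 0.15; adjusted p = 0.445).

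The rise of PhyB1 at big flare was close to the threshold. The limma adjusted p was 0.0605, with a change of 0.39, when libraries were scaled by the median of ratios, and 0.0554 in a fit of the compared groups alone. It also missed the threshold without any 1 of 7 libraries: high big flare replicate 1 (0.0607) or 2 (0.0693), high jointing replicate 1 (0.0595), low big flare replicate 1 (0.0569), low jointing replicate 2 (0.0735), middle big flare replicate 1 (0.0784) and middle jointing replicate 2 (0.0773). The log2 change stayed between 0.44 and 0.59 over all 18 omissions.

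PhyB2 followed the same course with larger changes. At jointing it measured 7.02 and 6.83 FPKM in high hybrid libraries, 8.44 and 5.09 in the middle hybrid and 4.92 and 3.88 in the low hybrid. The big flare libraries held 6.43 and 10.8 FPKM in high hybrid libraries, 16.1 and 14.4 in the middle hybrid and 10.4 and 11.8 in the low hybrid. The tasseling libraries held 2.8 and 2.72, 4.12 and 5.17, and 3.96 and 4.22 FPKM in the high, middle and low hybrids. All 6 tasseling libraries lay below all 6 big flare libraries, and 5 of the 6 big flare libraries lay above all 6 jointing libraries. PhyB2 fell by 1.37 ± 0.17 on the log2 scale in tasseling against big flare (SE; limma adjusted p = 0.000102), with 3.83 ± 0.932 FPKM at tasseling and 11.7 ± 3.38 FPKM at big flare (SD, n = 6). It rose by 0.84 ± 0.17 in big flare against jointing (adjusted p = 0.0106), where the jointing mean was 6.03 ± 1.68 FPKM.

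PhyB2 was the 1 gene of the 7 that passed as lower in tasseling against jointing, with a fall of 0.53 ± 0.17 on the log2 scale (SE; limma adjusted p = 0.0364). That call was lost in a fit of the compared groups alone (adjusted p = 0.0572). It was also lost without any 1 of 9 libraries: high jointing replicate 1 (0.0737) or 2 (0.0575), high tasseling replicate 1 (0.0658) or 2 (0.0603), low jointing replicate 1 (0.0807), low tasseling replicate 1 (0.073) or 2 (0.0648), middle jointing replicate 1 (0.0953) and middle tasseling replicate 1 (0.0885). The change itself stayed between -0.63 and -0.42.

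The phytochrome B copies are similar enough that fragments could have been shared between them, and how shared fragments were assigned is not given in the sources used here. The copies were therefore also summed. The summed FPKM fell by 0.91 on the log2 scale in tasseling against big flare (limma adjusted p = 0.000206) and rose by 0.64 in big flare against jointing (0.00944). In tasseling against jointing the sum gave -0.26 (adjusted p = 0.144), which did not pass.

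The share of each copy was compared as the ratio of PhyB1 to PhyB2 within a library, which does not depend on library size. PhyB1 was the higher copy in all 18 libraries, by a ratio of 1.484 to 4.496. The median ratio was 2.65 at jointing, 1.99 at big flare and 3.71 at tasseling. All 6 tasseling libraries (3.05 to 4.496) lay above all 6 big flare libraries (1.48 to 2.82), while the jointing libraries (1.98 to 3.48) overlapped both. The mean log2 ratio was 0.89 higher at tasseling than at big flare (two-sided exact permutation test within hybrids, p = 0.00926, the smallest that 216 permutations can give; 0.0556 adjusted over 6 comparisons). It was 0.48 higher at tasseling than at jointing (exact p = 0.0185, adjusted 0.0556). In big flare against jointing it differed by -0.40 (exact p = 0.0741, adjusted 0.148).

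With 6 comparisons, the smallest p of the permutations adjusts to 0.0556 when 1 comparison alone reaches it, so a single comparison could not pass. An adjusted p under 0.05 needs several comparisons with low p. Over the 12 omissions of a compared library, the difference ran from 0.77 to 1.00 in tasseling against big flare. Its range was 0.40 to 0.57 in tasseling against jointing and -0.52 to -0.28 in big flare against jointing. The omission of high big flare replicate 1, the library with the highest big flare ratio, gave the 1.00 and the -0.52. Between hybrids the ratio differed by 0.09 in high against low, 0.10 in middle against low and -0.01 in high against middle (adjusted exact permutation p = 0.767, 0.708 and 0.898).

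**Figure D2:**
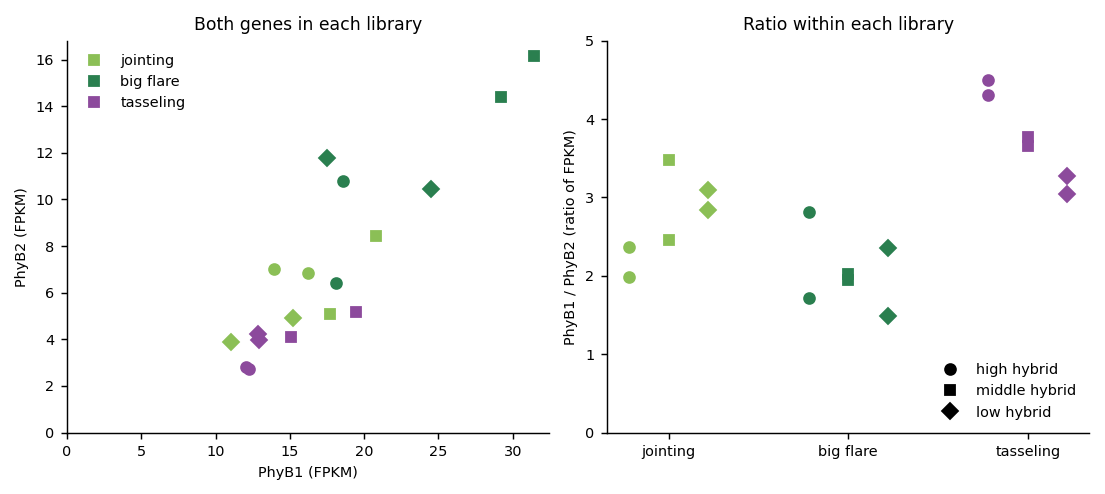
Left, PhyB2 against PhyB1 (FPKM) in each of the 18 libraries; right, the ratio of PhyB1 to PhyB2 in each library by stage, colours for stages and marker shapes for hybrids. The 6 tasseling libraries have ratios of 3.05 to 4.496, all above the 6 big flare libraries at 1.48 to 2.82.

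ct2 had its highest levels at tasseling. At jointing it measured 10.7 and 16.3 FPKM in high hybrid libraries, 11.3 and 7.78 in the middle hybrid and 8.86 and 9.93 in the low hybrid. Its big flare levels were 13.0 and 14.1 FPKM in high hybrid libraries, 11.2 and 16.9 in the middle hybrid and 13.3 and 13.6 in the low hybrid. At tasseling the high, middle and low hybrids had 27.1 and 15.4, 19.79 and 21.99, and 24.7 and 30.5 FPKM. Within each hybrid both tasseling libraries lay above both big flare libraries, and 5 of the 6 tasseling libraries lay above all 6 jointing libraries. ct2 rose by 1.04 ± 0.18 on the log2 scale in tasseling against jointing (SE; limma adjusted p = 0.00139), with 23.2 ± 5.38 FPKM at tasseling and 10.8 ± 2.96 FPKM at jointing (SD, n = 6). It rose by 0.70 ± 0.18 in tasseling against big flare (adjusted p = 0.00743), where big flare averaged 13.7 ± 1.87 FPKM. Big flare against jointing gave 0.34 ± 0.18 (95% interval -0.05 to 0.73; adjusted p = 0.237).

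liguleless2 had its highest mean at big flare, with values at jointing that overlapped. It measured 0.13 and 0 FPKM in high hybrid libraries, 0.78 and 0.85 in the middle hybrid and 1.49 and 0.06 in the low hybrid at jointing. At big flare it reached 1.31 and 3.4 FPKM in high hybrid libraries, 2.9 and 0.78 in the middle hybrid and 0.56 and 5.05 in the low hybrid. At tasseling no library exceeded 0.27 FPKM, with 0 and 0.11, 0.16 and 0.27, and 0 and 0.16 FPKM in the high, middle and low hybrids. All 6 tasseling libraries lay below all 6 big flare libraries. liguleless2 fell by 1.41 ± 0.35 on the log2(FPKM + 1) scale in tasseling against big flare (SE; limma adjusted p = 0.00603), a scale that understates the change of low genes. Big flare against jointing gave 1.01 ± 0.35 (95% interval 0.26 to 1.76; adjusted p = 0.0749), and 3 of the 6 big flare libraries lay above all jointing libraries. Among the alternatives of scaling, filter, pseudocount and model, that comparison passed only with quantile normalization (limma adjusted p = 0.0471). Over the 18 omissions of a single library its change ran from 0.69 to 1.34, the 1.34 without low big flare replicate 1.

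PIN1d was low throughout and highest at tasseling. At jointing it measured 0 and 1.39 FPKM in high hybrid libraries, 0.17 and 0.18 in the middle hybrid and 0.72 and 0.45 in the low hybrid. No big flare library exceeded 0.3 FPKM, with 0 and 0.3, 0.27 and 0.1, and 0 and 0 FPKM in the high, middle and low hybrids. At tasseling it stood at 1.07 and 1.67 FPKM in high hybrid libraries, 2.16 and 0.61 in the middle hybrid and 0.26 and 2.7 in the low hybrid. All but 1 of the 6 tasseling libraries lay above all 6 big flare libraries. PIN1d rose by 1.03 ± 0.30 on the log2(FPKM + 1) scale in tasseling against big flare (SE; limma adjusted p = 0.0148). Tasseling against jointing gave 0.67 ± 0.30 (95% interval 0.02 to 1.31; adjusted p = 0.112). Over the 18 omissions of a single library the change in that comparison ran from 0.41 to 0.92. It was 0.92 without low tasseling replicate 1 and 0.88 without high jointing replicate 2, so its size depends on single libraries.

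Between the hybrids, with each compared as the mean over the 3 stages, none of the 7 genes passed the threshold. In high against low, limma called 0 of 7, with 0 at an unadjusted p under 0.05, while 9.21% of all tested genes passed, 3.58% higher and 5.63% lower. In middle against low it called 0 of 7, with 1 at an unadjusted p under 0.05, while 6.93% of all genes passed, 2.62% higher and 4.31% lower. In high against middle it called 0 of 7, with 2 at an unadjusted p under 0.05, while 4.44% of all genes passed, 2.37% higher and 2.07% lower. At these background shares, fewer than 1 of 7 genes would pass in each comparison. The counts at an unadjusted p under 0.05 have a larger background. Of the 26792 tested genes, 5857 had such a p in high against low, 5013 in middle against low and 3982 in high against middle.

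PhyB1 came closest to the threshold between hybrids, with its highest level in the middle hybrid. It averaged 15.2 ± 2.87 FPKM in the high hybrid, 22.3 ± 6.55 in the middle hybrid and 15.7 ± 4.88 in the low one (SD, n = 6). Within each of the 3 stages, both middle libraries lay above both high and both low libraries. High against middle gave a log2 change of -0.50 ± 0.14 (SE; 95% interval -0.79 to -0.20; limma adjusted p = 0.0615) and middle against low gave 0.48 ± 0.14 (0.19 to 0.78; adjusted p = 0.0539). Middle against low passed with median-of-ratios scaling (limma adjusted p = 0.018), with quantile normalization (0.0191) and with no filter on low values (0.0481). It did not pass with the replicate block (0.07). Over the 18 omissions of a single library its change ran from 0.40 to 0.56. High against middle passed with quantile normalization (limma adjusted p = 0.0495) and did not pass with the replicate block (0.0805). In high against low PhyB1 gave -0.02 ± 0.14 (-0.31 to 0.28), and its sign turned under both other scalings.

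PhyB2 was also highest in the middle hybrid, without passing the threshold. It averaged 6.10 ± 3.03 FPKM in the high hybrid, 8.89 ± 5.18 in the middle hybrid and 6.53 ± 3.59 in the low one (SD, n = 6). High against middle gave -0.44 ± 0.17 (SE; limma adjusted p = 0.235) and middle against low 0.36 ± 0.17 (adjusted p = 0.298). Both middle libraries lay above both low libraries at 2 of the 3 stages, and above both high libraries at 2.

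For na1 the low hybrid had the highest mean at each stage, yet libraries overlapped. na1 averaged 9.12 ± 3.26 FPKM in the high hybrid, 9.61 ± 3.13 in the middle hybrid and 12.7 ± 3.6 in the low one (SD, n = 6). The interval for middle against low was -0.94 to 0.19 on the log2 scale (limma adjusted p = 0.508), and that for high against low -1.04 to 0.09. Both low tasseling libraries, at 12.5 and 12.8 FPKM, lay above all 4 tasseling libraries of the other hybrids.

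The remaining 4 genes differed little between hybrids relative to their spread. For ct2 the intervals were -0.37 to 0.41 in high against low, -0.50 to 0.27 in middle against low and -0.26 to 0.52 in high against middle. CYP85A1 had the widest intervals, with -0.88 to 0.90 in high against low, -1.11 to 0.67 in middle against low and -0.66 to 1.12 in high against middle. For liguleless2 the high against low interval was -0.95 to 0.55 and for PIN1d -0.55 to 0.74.

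**Figure D3:**
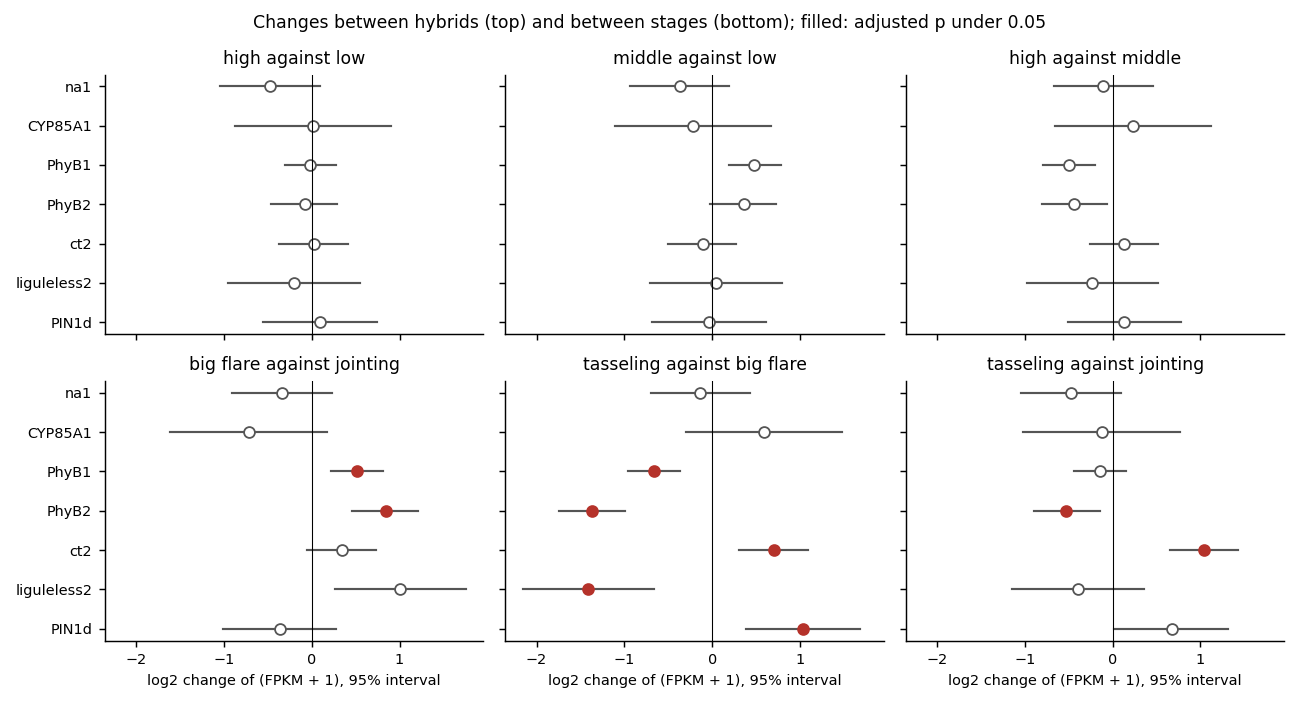
Log2 change of (FPKM + 1) with its 95% interval for each gene, between hybrids (top) and between stages (bottom), the first-named group minus the second. Filled points passed an adjusted p of 0.05: 0 of 7 in each hybrid comparison, 2 in big flare against jointing, 5 in tasseling against big flare and 2 in tasseling against jointing.

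The course over the stages was compared between hybrids with limma's moderated F test for the interaction. No member passed, and 0 had an unadjusted p under 0.05, with the lowest unadjusted p at 0.154 for PhyB2. Over all genes 15 passed, or 0.056%, and 1335 had an unadjusted p under 0.05. Stage accounted for 75.0% of the sum of squares of log2(FPKM + 1) for PhyB2, 72.5% for ct2, 58.0% for liguleless2, 52.4% for PIN1d and 51.4% for PhyB1. The median over all tested genes was 33.0%. Hybrid accounted for 33.9% for PhyB1, beside a median of 10.7% over all genes, and for 17.9% for na1. The spread between replicates held 52.2% for CYP85A1 and 49.5% for na1, against a median of 30.1%. PhyB1 and PhyB2 were among the least variable genes between replicates, with a replicate SD at the 7.1 and 9.8 percentiles of genes of like mean level.

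**Figure D4:**
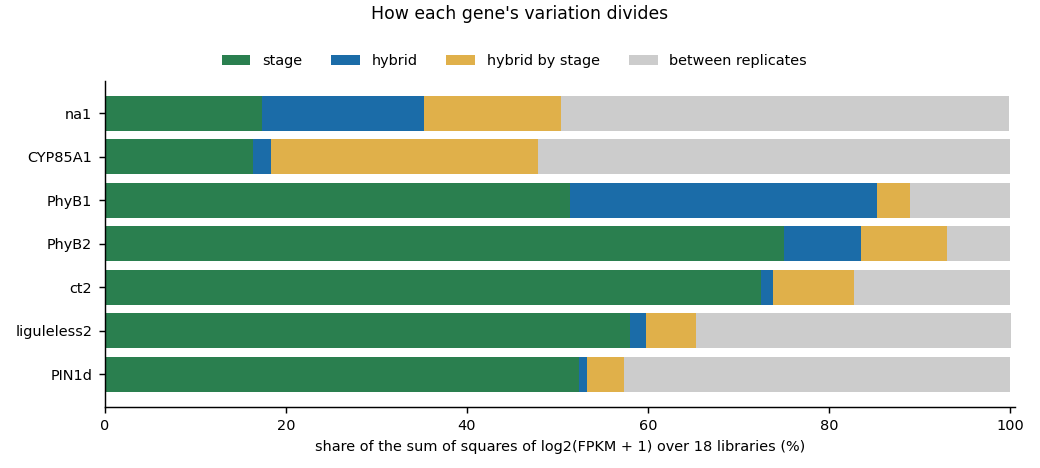
Share of each gene's sum of squares of log2(FPKM + 1) over the 18 libraries (horizontal axis, %) that lies between stages, between hybrids, in the hybrid-by-stage interaction and between replicates. Stage holds 51.4% to 75.0% for 5 genes, and replicates hold 49.5% for na1 and 52.2% for CYP85A1.

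Levels were also ordered over the 9 groups. PhyB1 was highest in middle big flare, with a mean of 30.3 FPKM, and lowest in high tasseling, with 12.1 FPKM. PhyB2 had the same first and last groups, at 15.3 and 2.76 FPKM. In both genes the top group lay above the next without overlap, as did low tasseling above high tasseling at the bottom, and no other neighbours in the order were separated. ct2 ran from 27.6 FPKM in low tasseling to 9.40 FPKM in low jointing, and the means of the 3 tasseling groups lay above those of all others. No neighbours were separated for CYP85A1 or liguleless2.

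The other genes of brassinosteroid synthesis and inactivation were followed as a list of 15 genes, 8 of them tested. In tasseling against big flare 4 of 8 passed, 3 higher and 1 lower, a share of 50% beside 41.6% of all tested genes, with a list median of -0.10 beside 0.01 for all genes. A 7-dehydrocholesterol reductase-like gene (Zm00001d016463), of the sterol steps that feed the pathway, averaged 67.7 ± 18.6 FPKM at tasseling and 39.9 ± 7.14 FPKM at big flare (SD, n = 6; log2 change 0.71 ± 0.17 SE; limma adjusted p = 0.00507). A CYP734A6-like gene (Zm00001d029288), of a family that inactivates brassinosteroids in Arabidopsis and rice, went the other way, with 2.22 ± 1.42 FPKM at tasseling and 6.69 ± 1.64 FPKM at big flare (-1.33 ± 0.22; adjusted p = 0.000445). A further CYP734A6-like gene (Zm00001d029384) separated the hybrids. None of the 6 high libraries had a value above 0, while it ranged from 2.33 to 4.89 FPKM in the middle hybrid and reached at most 1.1 FPKM in the low hybrid (middle against low 1.99 ± 0.20; adjusted p = 3.54e-05). This gene met the filter on low values only through the middle hybrid, so its call is not independent of the filter. In high against low 0 of 8 passed, beside 9.21% of all tested genes.

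Of 38 genes of brassinosteroid perception and signalling, 25 were tested. In tasseling against big flare 10 passed, 5 higher and 5 lower, and in tasseling against jointing 8 passed, 3 higher and 5 lower, shares of 40% and 32%, near the backgrounds. A gene named as BAK1 (Zm00001d037898), the co-receptor of the brassinosteroid receptor, averaged 19.7 ± 9.94 FPKM at tasseling and 1.08 ± 0.896 FPKM at big flare (SD, n = 6; 3.20 ± 0.48 SE; limma adjusted p = 0.000259). Another BAK1-named gene (Zm00001d048877) fell to 1.62 ± 0.658 FPKM at tasseling, against 7.64 ± 2.51 FPKM at big flare (-1.70 ± 0.34; adjusted p = 0.00171). In both high against low and high against middle 1 of 25 passed, a share of 4% beside 9.21% and 4.44% of all tested genes. It was a BAK1 match outside the reference annotation (BGI_novel_G000838), with 1.74 to 4.83 FPKM in the high hybrid, at most 0.08 in the middle hybrid and listed at 0 in the low hybrid (high against middle 1.89 ± 0.15; adjusted p = 4.74e-06). This match met the filter on low values only through the high hybrid, so its calls are not independent of the filter.

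The list of 22 other phytochrome and light signalling genes had 19 tested. In tasseling against big flare 5 passed, 1 higher and 4 lower, a share of 26.3% beside 41.6% of all genes. In tasseling against jointing 4 passed, all lower, which is 21.1% beside 29.9%. A pair of annotated phytochrome A-like genes fell at tasseling. Zm00001d033799 averaged 37.5 ± 9.59 FPKM at jointing, 53.94 ± 6.002 at big flare and 13.4 ± 5.42 at tasseling (SD, n = 6), a log2 change of -2.02 ± 0.21 in tasseling against big flare (SE; limma adjusted p = 3.87e-05). Zm00001d013402 averaged 6.997 ± 2.608, 13.1 ± 4.32 and 2.10 ± 0.404 FPKM at jointing, big flare and tasseling (-2.12 ± 0.25; adjusted p = 6.94e-05). Between hybrids 1 of 19 passed in high against low (5.26% beside 9.21% of all genes), 4 in middle against low (21.1% beside 6.93%) and 3 in high against middle (15.8% beside 4.44%). A phytochrome A match outside the reference annotation (BGI_novel_G000102) ranged from 3.03 to 6.3 FPKM in the middle hybrid, reached at most 0.1 FPKM in the high hybrid and had no value above 0 in the low hybrid (high against middle -2.47 ± 0.18; adjusted p = 2.33e-06). It gave 0.02 in tasseling against big flare (adjusted p = 0.949), and a further such match, BGI_novel_G000142, named after its values were seen, gave 0.04 (0.947). Both matches and a SPA1-RELATED 4-like gene (Zm00001d036651) made up the 3 calls in high against middle and were among the 4 in middle against low. The matches were listed at 0 in 11 and 12 of 18 libraries. Both met the filter on low values only through the middle hybrid, where they were high. Their calls, and the list shares that include them, are therefore not independent of the filter. Zm00001d036651, also named after its values were seen, had stage means of 0.697, 0.607 and 0.572 FPKM.

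The G protein list held 2 genes beside ct2, both tested, and both fell in tasseling against jointing while ct2 rose. Of all tested genes 29.9% passed in that comparison, 18.8% higher and 11.1% lower, and 41.6% passed in tasseling against big flare. The beta subunit gene (Zm00001d033422) averaged 47.9 ± 3.57 FPKM at tasseling and 63.8 ± 10.5 FPKM at jointing (SD, n = 6; -0.39 ± 0.11 SE; limma adjusted p = 0.0207). That call was lost without high jointing replicate 1 (0.0569), low jointing replicate 2 (0.0554), low tasseling replicate 2 (0.0514) or middle tasseling replicate 1 (0.0536). An extra-large G protein 1 gene (Zm00001d030916), an alpha-like subunit, averaged 17.2 ± 1.77 FPKM at tasseling and 22.4 ± 2.81 FPKM at jointing (-0.36 ± 0.13; adjusted p = 0.0471). It kept its call only without low big flare replicate 1 or 2, low jointing replicate 2, middle jointing replicate 1 or middle tasseling replicate 1, and the adjusted p over all 18 omissions ran from 0.0416 to 0.117. It was also lost in a fit of the compared groups alone (0.0741). In tasseling against big flare 1 of the 2 passed, the beta subunit gene (-0.36 ± 0.11; adjusted p = 0.0217), with 0.0537 after median-of-ratios scaling, 0.0505 without low tasseling replicate 2 and 0.0552 without middle tasseling replicate 1.

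Of 34 other ligule, TGA-type bZIP and SBP architecture factors, 25 were tested. In big flare against jointing 5 passed, 3 higher and 2 lower, a share of 20% beside 12.4% of all genes. In tasseling against big flare 11 passed, 5 higher and 6 lower, and the share of 44% was near the 41.6% of all genes. A TGA6-like gene (Zm00001d012294), a bZIP factor as liguleless2 is, averaged 4.23 ± 2.63 FPKM at jointing, 39.1 ± 19.9 at big flare and 3.10 ± 1.97 at tasseling (SD, n = 6; big flare against jointing 2.92 ± 0.49 SE, limma adjusted p = 0.00423; tasseling against big flare -3.28 ± 0.49, 0.000284). A TGA2-like gene (Zm00001d015846) averaged 3.77 ± 1.95, 17.1 ± 8.23 and 2.83 ± 3.49 FPKM at the 3 stages in that order (1.91 ± 0.41, adjusted p = 0.0124; -2.53 ± 0.41, 0.000444). A TGA4-like gene (Zm00001d011075) differed between hybrids, at 0.300 ± 0.120 FPKM in the high hybrid and 15.3 ± 4.51 FPKM in the low hybrid (-3.6 ± 0.53; adjusted p = 0.000641). It was 1 of the 3 genes of the list that passed in high against low, all lower. That is a share of 12% beside 9.21% of all genes, 5.63% of them lower.

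Auxin transport was followed in 23 genes beside PIN1d, 20 of them tested. Of these, 9 passed in tasseling against big flare, 7 higher and 2 lower, a share of 45% near the 41.6% of all genes, and the list median was 0.49 beside 0.01. In tasseling against jointing 4 passed, all higher, or 20% beside 29.9% of all genes, with a median of 0.68 beside 0.08. A PINOID-like kinase gene (Zm00001d033234), of the family that sets PIN polarity in Arabidopsis, rose to 5.05 ± 2.02 FPKM at tasseling, against 0.980 ± 1.00 FPKM at big flare (SD, n = 6; 1.71 ± 0.34 SE; limma adjusted p = 0.00157). A gene matched to the auxin influx carrier AUX1 (Zm00001d000288) peaked at big flare, with 5.18 ± 2.41 FPKM at jointing, 48.9 ± 21.2 at big flare and 13.3 ± 4.96 at tasseling (big flare against jointing 2.99 ± 0.32, adjusted p = 0.000471). An ABCB19-like gene (Zm00001d033732) was near 0 in the high hybrid, with at most 0.62 FPKM, ranged from 0 to 27.1 FPKM in the middle hybrid and reached at most 0.79 FPKM in the low hybrid (high against middle -3.11 ± 0.37; adjusted p = 0.000189). It met the filter on low values only through the middle hybrid, so its call is not independent of the filter.

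**Figure D5:**
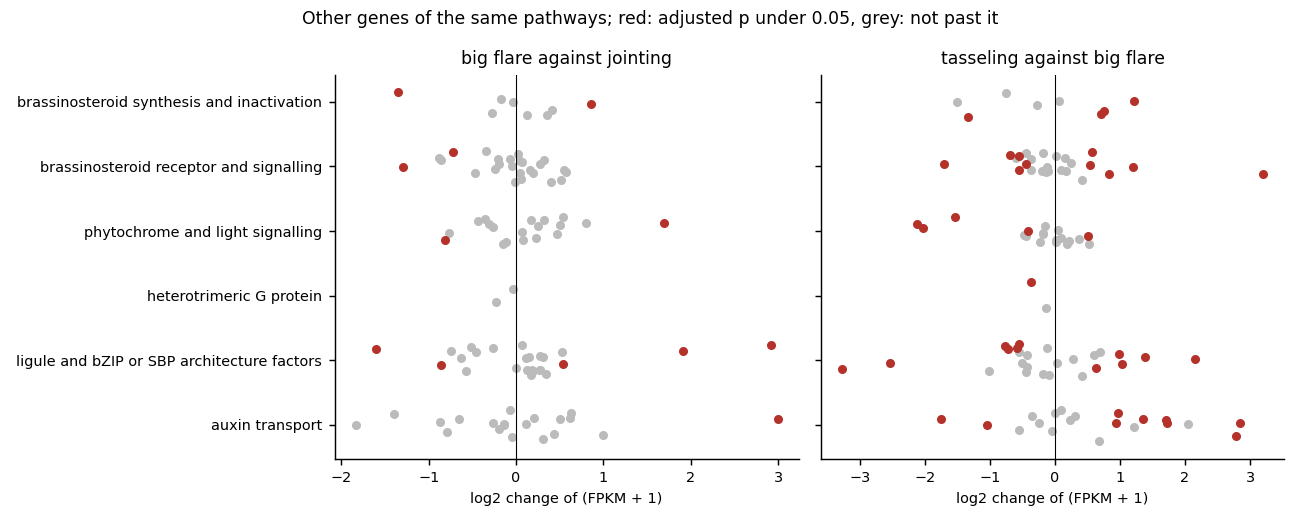
Log2 change of (FPKM + 1) of the tested genes of each of the 6 pathway lists, without the 7 genes themselves, in big flare against jointing (left) and tasseling against big flare (right). Red points passed an adjusted p of 0.05; in tasseling against big flare these were 7 higher and 2 lower of 20 auxin transport genes.

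The MADS-box and KNOX genes, listed as markers of inflorescence and shoot meristem, had their highest sums at big flare. PhyB1, PhyB2 and liguleless2 had their highest means at the same stage, while single marker genes followed other courses. Of 34 tested MADS-box genes, 15 were higher and 1 lower in big flare against jointing, and 6 were higher and 10 lower in tasseling against big flare. The shares over all genes were 7.29% higher and 5.06% lower in the earlier step, and 22.4% higher and 19.2% lower in the later one. The summed level of all 64 MADS-box genes was 496 to 668 FPKM at jointing, 949 to 1456 at big flare and 594 to 864 at tasseling. The MADS-box genes ZAG1, bde1, silky1 and zag2 were at or near 0, with stage means of at most 0.133, 0.0483, 0.502 and 0.213 FPKM. Some other MADS-box genes were above 0. sts1 (Zm00001d042618) averaged 2.62 FPKM at jointing, 5.65 at big flare and 4.57 at tasseling, and zap1 (Zm00001d007949) averaged 1.66, 11.6 and 21.1 FPKM. MADS24 (Zm00001d034047) reached a mean of 26.2 FPKM and Zm00001d018667 one of 85.3 FPKM at tasseling, where PhyB1, PhyB2 and liguleless2 were low. Of 5 KNOX genes, which mark the shoot meristem, 2 were higher in big flare against jointing and 4 lower in tasseling against big flare. Their sum was 190 to 264 FPKM at jointing, 297 to 379 at big flare and 103 to 247 at tasseling. Not all of them peaked at big flare. Zm00001d035439 averaged 12.1, 15.7 and 16.5 FPKM at jointing, big flare and tasseling, and Zm00001d007842 averaged 37.6, 36.0 and 13.1 FPKM. The part of these tissues in the changes of PhyB1, PhyB2 and liguleless2 was not tested.

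Markers of green leaf and secondary wall varied more widely within stages. The 25 green leaf genes summed to 2729 to 9248 FPKM at jointing, 2106 to 4295 at big flare and 3120 to 5722 at tasseling, and 6 of 21 tested were higher and 1 lower in tasseling against big flare, where 22.4% of all genes were higher and 19.2% lower. The 11 secondary wall and xylem genes summed to 571 to 2050, 221 to 1054 and 313 to 4273 FPKM at the 3 stages, with 2 of 9 tested higher and 2 lower in that comparison. The part of these tissues in the changes of ct2 and PIN1d was not tested.

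Among the 7 genes, PhyB1 and PhyB2 had the most alike profiles over the 18 libraries, with a Pearson correlation of 0.87 for log2(FPKM + 1). PhyB2 and liguleless2 had 0.70 and ct2 and PIN1d 0.55, while PhyB2 and PIN1d had -0.61. These values are descriptions: the points share stage, hybrid and library. Among 8743 other named genes with a mean log2(FPKM + 1) of at least 2, the profile most like PhyB1 was that of beta-expansin 7 (Zm00001d029906, r = 0.908), a cell wall loosening protein. It averaged 7.25 FPKM at jointing, 108 at big flare and 7.36 at tasseling. The next was a gene named heparan-alpha-glucosaminide N-acetyltransferase-like (Zm00001d009856, 0.887).

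For PhyB2 the most alike genes were auxin response factor 22 (Zm00001d036593, r = 0.920), an auxin-dependent transcription factor, and an RNA recognition motif gene (Zm00001d038248, 0.910). For ct2 they were the calcium-dependent protein kinase CPK21 (Zm00001d041871, 0.950) and serine/threonine-protein kinase 12 (Zm00001d034166, 0.937). CPK21 averaged 23.2 FPKM at jointing, 28.1 at big flare and 54.6 at tasseling. liguleless2 was most like an ornithine aminotransferase gene (Zm00001d033228, 0.890) and a methionine-tRNA synthetase gene (Zm00001d028218, 0.887).

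PIN1d was most like a sugar transporter gene (Zm00001d002962, r = 0.849) and a family 16 glycosyl hydrolase gene (Zm00001d002193, 0.814), which averaged 17.9 FPKM at jointing, 0.512 at big flare and 75.6 at tasseling. na1 was most like lbl1 (Zm00001d035256, 0.875), the SGS3 homolog of the small RNA pathway that patterns maize leaves, and a calmodulin binding protein gene (Zm00001d011138, 0.866). For CYP85A1 the highest correlations were lower, at 0.714 for an arabinoxylan arabinofuranohydrolase gene (Zm00001d007195) and 0.691 for a protein kinase gene (Zm00001d013858).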

How the data were processed

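Stem poly-A RNA of 18 libraries was sequenced as paired ends, per the labels' protocols. The authors deposited FPKM values per gene. The submitters' processing notes name TopHat2, Cufflinks 2.2.1, Cuffdiff and DESeq 1.28.0 and the build B73 RefGen_v4, with no role or order. FPKM divides by library size, so abundant genes can shift all others. Names are the best matches in the deposited table, with symbols of another assembly, so no coordinates are given.

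From these values, limma 3.58.1 in R 4.3.3 modelled log2(FPKM + 1) by 9 group means (trended moderated variances, 9 residual degrees of freedom). A gene needed at least 1 FPKM in 2 or more libraries, which kept 26792 genes and left out 7682. Two-sided p-values were adjusted by Benjamini-Hochberg over the genes kept. The ratio of PhyB1 to PhyB2 was tested by exact permutation of labels within strata. Relative depth came from whole-fragment steps in low FPKM values of 5233 genes, and 98% of 153 library pairs matched the fit to within 0.05 on the log2 scale.

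Besides the 7 genes, named genes were the 2 most correlated genes of each and, of each pathway list, up to 3 genes with the smallest adjusted p. Lists are name patterns, from which 4 genes of another kind were removed by name. The genes and lists were chosen with earlier results of these data known. Alternatives were median-of-ratios scaling, quantile normalization, no filter on low values, a pseudocount of 0.1, a fit of the compared groups, a replicate block, summed phytochrome B and the omission of each library.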

Additional observations from a re-analysis of the deposited data

How the results depend on the processing

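The count of 5 of 7 genes in tasseling against big flare held in every alternative run. Big flare against jointing gave 1 gene in place of 2 with median-of-ratios scaling or in the fit of the compared groups, 1 to 2 when single libraries were left out, and 3 with quantile normalization, where liguleless2 passed as well. Tasseling against jointing gave 1 in the fit of the compared groups and 1 to 2 when libraries were left out. Middle against low gave 1 in place of 0 with median-of-ratios scaling, quantile normalization or no filter, and 0 to 1 when libraries were left out. High against middle gave 1 with quantile normalization. Signs turned for PhyB1 in high against low (0.07 with either scaling), for PhyB2 there (0.06, quantile) and for PIN1d in middle against low (0.16 with a pseudocount of 0.1 and 0.06 with quantile normalization). The cause was not tested.

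When single libraries were left out, signs turned for several small hybrid differences. In high against low the ranges were -0.11 to 0.15 for ct2, -0.36 to 0.37 for CYP85A1, -0.52 to 0.13 for liguleless2, -0.09 to 0.06 for PhyB1, -0.19 to 0.03 for PhyB2, -0.17 to 0.35 for PIN1d and -0.03 to 0.21 for the log2 ratio of PhyB1 to PhyB2. In middle against low they were -0.59 to 0.14 for CYP85A1, -0.29 to 0.36 for liguleless2, -0.30 to 0.22 for PIN1d and -0.01 to 0.21 for the ratio. In high against middle they were -0.01 to 0.47 for CYP85A1, -0.30 to 0.09 for na1, -0.07 to 0.34 for PIN1d and -0.13 to 0.11 for the ratio. Between stages, CYP85A1 ran from -0.49 to 0.24 in tasseling against jointing and na1 from -0.33 to 0.06 in tasseling against big flare. The ratio ran from -0.52 to -0.28 in big flare against jointing, from 0.77 to 1.00 in tasseling against big flare and from 0.40 to 0.57 in tasseling against jointing.

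Over 36 pairs of groups the deviations of same-numbered libraries correlated at -0.43 to 0.29, with a median of -0.01. Of these pairs 8 were over 0.1 and 10 under -0.1. Whether the replicate numbers pair the libraries was not tested. With the replicate block the counts were 2, 5 and 2 for the stages as without it, and among the named genes the extra-large G protein gene lost its call in tasseling against jointing (adjusted p = 0.0536). For CYP85A1, whose replicates differed in 1 direction, the block gave adjusted p = 0.102 in big flare against jointing and 0.094 in tasseling against big flare. Over all genes, big flare against jointing gave 1954 genes higher and 1356 lower as deposited, and 1415 higher and 1769 lower with median-of-ratios scaling, so the balance of its calls depends on the scaling. Tasseling against jointing gave 5050 higher and 2965 lower as deposited, and 4373 and 3957 with quantile normalization. Depth limits the precision of values near 0, which CYP85A1, liguleless2 and PIN1d each had in some libraries.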

Other observations

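Other light signalling and brassinosteroid genes, chosen here after their values were seen, followed different courses. A PIF5-named gene (Zm00001d034298), of the factors that phytochrome B restrains, averaged 1.75 ± 0.811 FPKM at jointing, 8.49 ± 4.56 at big flare and 2.04 ± 0.612 at tasseling (SD, n = 6). Its log2 change was 1.70 in big flare against jointing (limma adjusted p = 0.00902) and -1.53 in tasseling against big flare (0.00328). Another PIF5-named gene (Zm00001d013130) was low and had no such peak, with means of 0.383, 0.633 and 0.698 FPKM at the 3 stages. Its changes in the same comparisons were 0.17 (limma adjusted p = 0.655) and 0.10 (0.765). A phytochrome C gene (Zm00001d034038) had no peak at big flare, with 26.8 ± 2.80, 22.3 ± 4.09 and 19.5 ± 2.55 FPKM at the 3 stages, and fell by 0.44 in tasseling against jointing (adjusted p = 0.0332). Another, named phytochromeC2 (Zm00001d013262), had its highest mean there, with 4.55 ± 2.27, 6.49 ± 1.10 and 5.86 ± 1.72 FPKM. Its change of 0.50 in big flare against jointing did not pass (limma adjusted p = 0.136). Dwf4 (Zm00001d028325), a C-22 hydroxylase of brassinosteroid synthesis, averaged 3.19 ± 1.14 FPKM at tasseling and 1.52 ± 0.815 FPKM at big flare (0.76; adjusted p = 0.0104).

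CYP85A1 was higher in replicate 2 than in replicate 1 in 9 of 9 groups. Among all tested genes 12 (0.0448%) did so and 25 (0.0933%) were lower in replicate 2 in all 9 groups, while na1 was higher in replicate 2 in 3 groups and PhyB1 in 4. This was noticed in the values and not tested, and the labels do not say what the replicate numbers mark.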
